A study of Mus musculus with 13 samples.

Results

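The genes of the cell division cycle were followed through metronomic cyclophosphamide (CPA) treatment of 4T1 tumors, mouse mammary carcinomas grown from a transplantable BALB/c cell line. The 48 genes were chosen by name, as cyclins, cyclin-dependent kinases (CDKs), CDK inhibitors, replication factors and mitotic regulators, and all 48 were found among the 24170 genes of the deposited table. In all 5 groups BALB/c females carried the cells as implants in the fourth mammary fat pad. Vehicle mice received PBS and were 10 to 11 weeks old when tumors were taken (3 libraries). CPA was given at 130 mg/kg every 6 days, for 2 cycles (3 libraries, 10 to 11 weeks), 4 cycles (3 libraries, 12 to 13 weeks) or 7 cycles (2 libraries, 14 to 15 weeks). In the regrowth group, dosing was halted at 4 cycles and tumors were taken 18 days later (2 libraries, 14 to 15 weeks). The RNA of 2 to 3 tumors was combined for each of the 13 libraries. Each gene has 1 FPKM value per group (fragments per kilobase of transcript, scaled to the mapped reads), so no spread between libraries, SD or test could be computed and every difference below is a description. Age differs between most groups as well as treatment, and the contribution of each cannot be told apart.

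Cells pass from G1 into S phase when D cyclins with CDK4 or CDK6, and then E cyclins with CDK2, phosphorylate the retinoblastoma protein and release E2F transcription factors. The MCM helicase is loaded at replication origins in G1 and DNA is copied in S phase. Cyclin A and cyclin B with CDK1 then drive mitosis, where Aurora and Polo-like kinases build the spindle, the checkpoint holds anaphase until every chromosome is attached, and the anaphase-promoting complex degrades cyclin B. CPA is a prodrug activated in the liver to a DNA crosslinking mustard, and proliferating cells are especially sensitive to such damage.

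The labelled tissue expressed its defining markers. The 16 epithelial and tumor markers summed to 951 FPKM in vehicle, 875 after 2 cycles, 1057 after 4 cycles, 1422 after 7 cycles and 1337 in regrowth, and none of them was listed at 0 in any group. The summed FPKM of all genes was 214214, 226420, 238549, 258724 and 251042 in the same order, so the groups do not share 1 total. Rescaling each group to the same total lowers the median log2 difference of all genes to -0.04 after 2 cycles, -0.09 after 4, -0.27 after 7 and -0.24 in regrowth, each over vehicle, and to -0.13 for regrowth over 4 cycles. Differences are given on the deposited scale as log2 of FPKM + 0.1, which understates the change of low genes, and are read against the 11438 genes whose mean FPKM over the 5 groups was at least 1. Of the 48 cell cycle genes, 46 reached that level, the exceptions being the CDK inhibitors Cdkn2a and Cdkn2b.

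Cell cycle genes stood modestly above vehicle after 2 and 4 CPA cycles, close to vehicle after 7 cycles, and below it in regrowth. After 2 cycles 41 of the 46 lay above vehicle, with a median log2 difference of 0.25, beside 0.04 for all genes. After 4 cycles 38 lay above vehicle, with a median of 0.21 beside 0.06 for all genes. After 7 cycles 27 lay above and 19 below, with a median of 0.02 beside 0.00. In regrowth 36 lay below vehicle, with a median of -0.28 beside -0.01. With each group rescaled to the same total, those counts became 37 and 29 above vehicle after 2 and 4 cycles, 8 above and 38 below after 7 cycles, and 42 below in regrowth. The rescaled medians were 0.18, 0.07, -0.26 and -0.51 in the same order. For all genes they were -0.04, -0.09, -0.27 and -0.24, so after 7 cycles the 46 lay near the whole table. How many of all genes lay above or below vehicle was not counted. In RNA from whole tumor tissue, fewer dividing cells and less RNA of these genes per cell cannot be told apart.

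**Figure D1:**
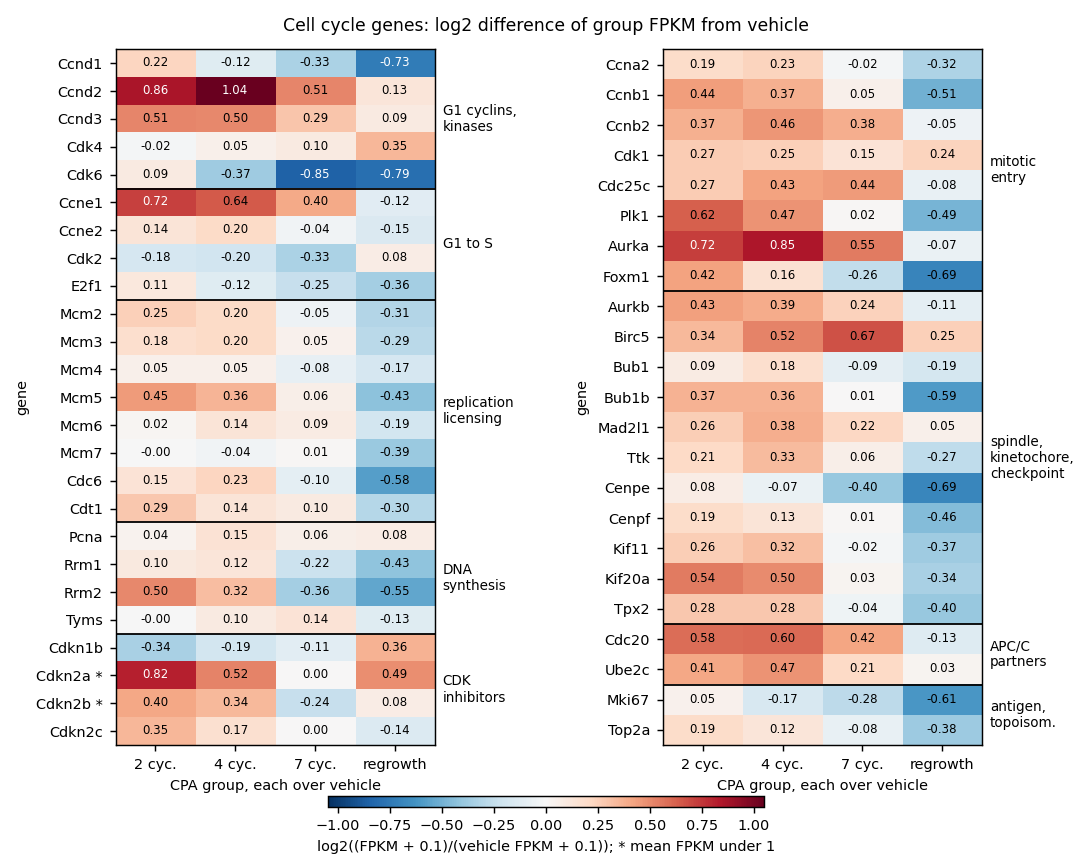
Map of the log2 difference of group FPKM (+ 0.1) from vehicle for the 48 cell cycle genes (down the page, by role) in the 4 CPA groups (across), with red above and blue below vehicle. The red block of the 2 and 4 cycle columns gives way to blue in the regrowth column, and Cdkn2a and Cdkn2b, marked with an asterisk, lie below a mean of 1 FPKM.

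Few of these differences were large. Past 1.5-fold, 4 genes were higher and 0 lower after 2 cycles, where 6.72% of all genes were higher and 2.08% lower. After 4 cycles 4 were higher and 0 lower, beside 7.83% and 3.82% of all genes. After 7 cycles 1 was higher and 1 lower, beside 11.0% and 8.74%. In regrowth 0 were higher and 6 lower than in vehicle, beside 6.79% and 7.77%. The genes past the limit after 2 and after 4 cycles are each 8.70% of the 46 and the 6 in regrowth are 13.0%. In the 6 comparisons made, Ccnd2 after 4 cycles was the only gene past 2-fold. The background of higher and lower genes past 2-fold was 2.89% and 0.647% after 2 cycles, 3.30% and 1.36% after 4, 3.87% and 2.60% after 7, and 1.54% and 2.09% in regrowth, and for regrowth over 4 and over 7 cycles 0.831% and 4.03%, and 0.673% and 2.40%. Rescaled to the same total, the shares of all genes became 5.60% higher and 3.00% lower after 2 cycles, 5.65% and 6.90% after 4, 5.46% and 22.2% after 7, and 3.05% and 18.6% in regrowth, with 3, 2, 0 and 0 cell cycle genes higher and 0, 0, 5 and 18 lower.

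Of the 6 comparisons made, the median lay furthest from 0 for regrowth over 4 cycles, the stage at which dosing had been halted. In regrowth 43 of the 46 genes lay below their level after 4 cycles, with a median log2 difference of -0.50 beside -0.06 for all genes, and 18 were lower past 1.5-fold with 0 higher, beside 10.5% and 4.16% of all genes. Over the age-matched 7 cycle tumors, 40 of 46 lay lower in regrowth, with a median of -0.33 beside -0.01, and 2 genes were lower past 1.5-fold with 0 higher, beside 5.60% and 2.62%. The counts of 43 and 40 below were the same after rescaling to a common total. Of all 48 genes, 24 had their highest value after 2 cycles, 17 after 4 cycles, 4 after 7 cycles, 3 in regrowth and 0 in vehicle. Regrowth held the lowest value of 35, vehicle of 8, the 7 cycle group of 3 and the 2 cycle group of 2. These counts of highest and lowest values were made for the 48 genes only and have no background over all genes. Regrowth over 2 cycles was not among the comparisons, and it is between those groups that Foxm1, Plk1 and Rrm2 had their widest spans, 2.16, 2.16 and 2.07-fold.

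**Figure D2:**
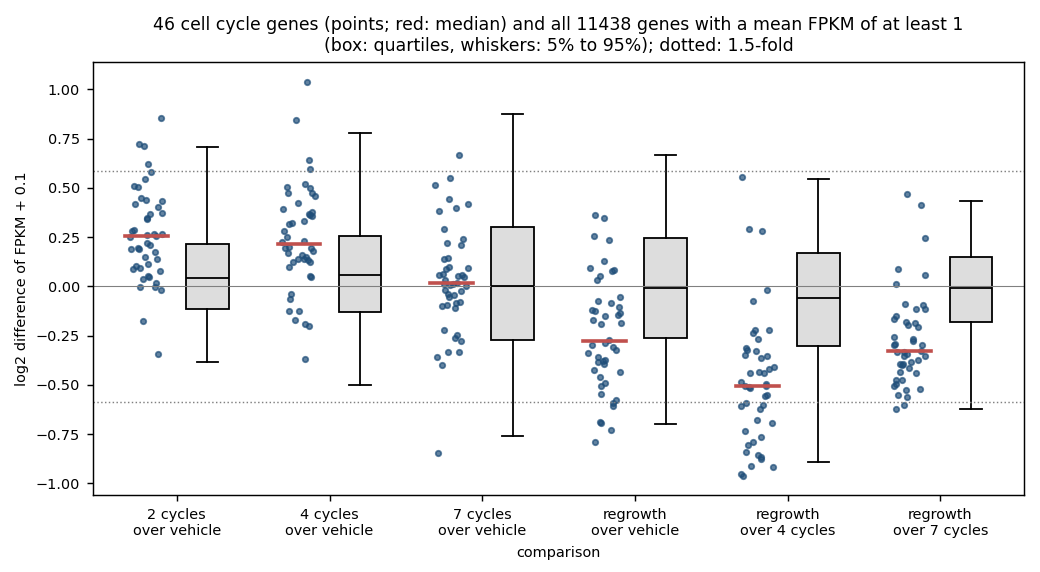
Log2 difference of FPKM + 0.1 in each of the 6 comparisons for the 46 cell cycle genes (points, red line at the median) beside all 11438 genes with a mean FPKM of at least 1 (box at the quartiles, whiskers from 5% to 95%), with dotted lines at 1.5-fold. The cell cycle medians sit at 0.25, 0.21, 0.02 and -0.28 over vehicle, and at -0.50 and -0.33 for regrowth over 4 and over 7 cycles.

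Among the genes of G1, each D cyclin followed its own course. Ccnd2 (chr6:127075726-127101066, mm9), a D cyclin induced by growth factor signalling, was 3.88 FPKM in vehicle, 7.12 after 2 cycles, 8.10 after 4 cycles, 5.58 after 7 cycles and 4.26 in regrowth. Its log2 difference over vehicle was 0.86, 1.04 and 0.51 after 2, 4 and 7 cycles, and the value after 4 cycles was the largest difference of the 48 genes over vehicle in any group. Ccnd1 (chr7:152115835-152125830, mm9), the main D cyclin of mammary epithelium, measured 128, 149, 117, 101 and 77.1 FPKM in the same order of groups. Its high point was after 2 cycles, and in regrowth it stood at 60.3% of vehicle, a log2 difference of -0.73. Ccnd3 was 13.9, 19.8, 19.7, 17.0 and 14.8 FPKM, highest during treatment and back near vehicle in regrowth. The make-up of the D cyclins differed between groups. Ccnd1 made up 87.8% of their summed FPKM in vehicle, 84.7% after 2 cycles, 80.8% after 4 cycles, 81.8% after 7 cycles and 80.2% in regrowth, while Ccnd2 made up 2.67%, 4.04%, 5.57%, 4.50% and 4.43%. Shares of this kind compare genes within a group, so they do not depend on how the groups were scaled. Ccnd1, Ccnd3 and Ccnd2 have transcripts of 3.74, 2.03 and 1.01 kb, and the part of transcript length in these shares was not tested.

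The partner kinases of the D cyclins parted from each other. Cdk4 measured 115, 114, 119, 123 and 146 FPKM in vehicle, after 2, 4 and 7 cycles and in regrowth, and its regrowth value was the highest, log2 0.35 over vehicle. Cdk6 (chr5:3344311-3522225, mm9) measured 3.60, 3.85, 2.76, 1.96 and 2.04 FPKM, log2 -0.85 over vehicle after 7 cycles and -0.79 in regrowth. Of the 46 genes it alone was lower past 1.5-fold after 7 cycles. The ratio of Cdk4 to Cdk6 was thus 32.0 in vehicle, 29.5 after 2 cycles, 43.2 after 4, 62.9 after 7 and 71.7 in regrowth. Cdk6 has a transcript of 7.00 kb, and long transcripts as a class stood lower in the later groups, so relative to genes of like length its difference was -0.48 after 7 cycles and -0.47 in regrowth, within 1.5-fold. Cdk4, with a transcript of 1.38 kb, differed on that scale by -0.12 after 7 cycles, where its sign turns, and by 0.18 in regrowth, so the kinases lay closer together than the ratio of their FPKM shows.

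**Figure D3:**
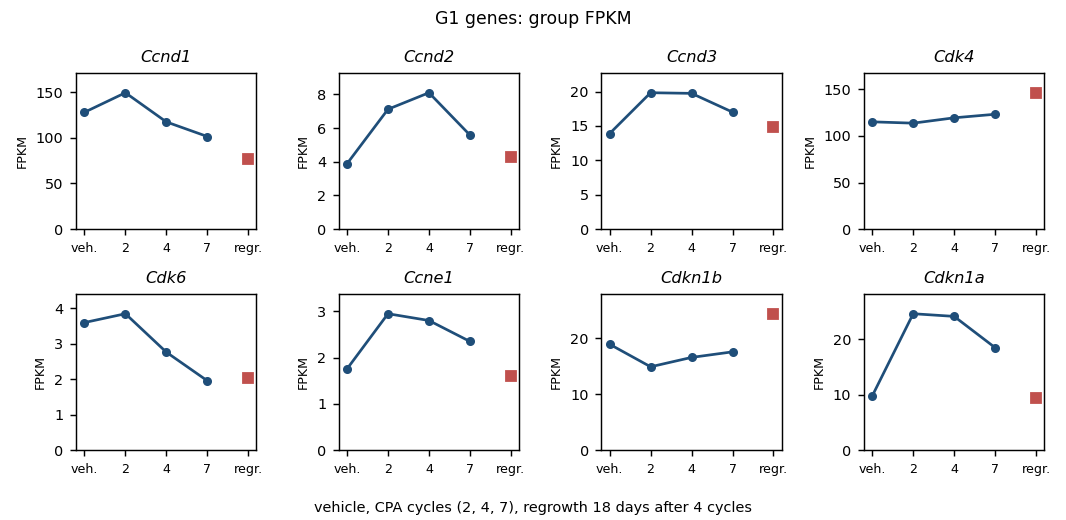
Group FPKM (vertical axes from 0) of 8 regulators of G1 in vehicle, after 2, 4 and 7 CPA cycles (joined circles) and in regrowth 18 days after 4 cycles (square). Ccnd2 and Ccne1 peak at 8.10 and 2.95 FPKM during treatment, Ccnd1 has its low of 77.1 FPKM in regrowth, where Cdk4 and Cdkn1b have their highs of 146 and 24.4 FPKM.

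At the entry to S phase, the E cyclin Ccne1 differed more from vehicle than its relative Ccne2. Ccne1 (chr7:38883002-38892509, mm9), which activates CDK2, measured 1.76 FPKM in vehicle, 2.95 after 2 cycles, 2.80 after 4 cycles, 2.35 after 7 cycles and 1.61 in regrowth, log2 0.72, 0.64, 0.40 and -0.12 over vehicle. Ccne2 lay between 1.45 FPKM in regrowth and 1.88 FPKM after 4 cycles. Cdk2 itself went the other way during treatment, at 11.0 FPKM in vehicle, 9.69, 9.54 and 8.71 after 2, 4 and 7 cycles, and 11.6 in regrowth. E2f1, the transcription factor that activates S phase genes, was 7.68, 8.31, 7.04, 6.46 and 5.96 FPKM, lowest in regrowth. Both E cyclins were among the lower genes of the cycle, at 2.95 FPKM or less in every group.

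The 8 replication licensing genes stood within 1.5-fold of vehicle in every group. Their summed FPKM was 143 in vehicle, 159 after 2 cycles, 157 after 4, 146 after 7 and 116 in regrowth, and all 8 lay below vehicle in regrowth (log2 -0.58 to -0.17). Among the subunits of the MCM helicase, Mcm5 had the widest range, at 16.4, 22.4, 21.0, 17.1 and 12.1 FPKM. Mcm2 measured 12.1, 14.5, 13.9, 11.7 and 9.77 FPKM, and Mcm3 measured 21.3, 24.1, 24.5, 22.0 and 17.5 FPKM. Mcm4, Mcm6 and Mcm7 stood within a log2 difference of 0.14 of vehicle at every stage of treatment. Of the factors that load the helicase, Cdc6 was 2.34, 2.60, 2.75, 2.17 and 1.53 FPKM, and Cdt1 was 15.9, 19.4, 17.5, 17.0 and 12.9 FPKM. The 6 MCM subunits kept within a narrow span of each other, the highest being 2.77, 2.59, 2.53, 2.89 and 2.62 times the lowest across the 5 groups.

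The 4 genes of DNA synthesis differed from each other in their course. Pcna, the sliding clamp of the replicative polymerases and also of DNA repair, was the steadiest of the 48, at 69.5, 71.5, 77.1, 72.6 and 73.3 FPKM, its highest value 1.11 times its lowest. Rrm2, the regulated subunit of ribonucleotide reductase, measured 13.1 FPKM in vehicle, 18.6 after 2 cycles, 16.4 after 4 cycles, 10.2 after 7 cycles and 8.94 in regrowth, a 2.07-fold span. Its constitutive partner Rrm1 spanned less, at 12.8, 13.7, 13.9, 11.0 and 9.50 FPKM, so the ratio of Rrm2 to Rrm1 was 1.02, 1.36, 1.18, 0.930 and 0.941. Tyms, the thymidylate synthase, stayed between 4.33 and 5.23 FPKM. The sign of the Pcna difference turns negative in all 4 CPA groups over vehicle when the groups are rescaled to a common total.

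Genes of mitotic entry stood higher during early treatment than those of replication, with a median log2 difference over vehicle of 0.40 after 2 cycles and 0.40 after 4 cycles, beside 0.16 and 0.17 for licensing. Their transcripts run from 1.53 kb (Ccnb2) to 3.44 kb (Foxm1), and those of licensing from 2.16 kb (Mcm7) to 3.63 kb (Mcm6). The part of transcript length in this contrast was not tested. Aurka (chr2:172181689-172196070, mm9), the Aurora kinase of centrosomes and spindle poles, measured 8.36 FPKM in vehicle, 13.9 after 2 cycles, 15.1 after 4 cycles, 12.3 after 7 cycles and 7.95 in regrowth. Its log2 difference of 0.72, 0.85 and 0.55 over vehicle was the largest of any mitotic gene after 2 and 4 cycles. Plk1 (chr7:129302950-129313389, mm9), the Polo-like kinase that acts at entry and spindle assembly, measured 11.6, 17.9, 16.1, 11.7 and 8.22 FPKM, log2 0.62, 0.47, 0.02 and -0.49. On the deposited scale Plk1 and Aurka differ in their later course, since Plk1 was already at its vehicle level after 7 cycles while Aurka was not. With the groups rescaled to a common total, Plk1 lies below vehicle after 7 cycles (log2 -0.256) and Aurka remains above it.

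The mitotic cyclins and their kinase diverged in regrowth. Ccnb1, the cyclin degraded at anaphase, measured 15.7 FPKM in vehicle, 21.3 after 2 cycles, 20.3 after 4 cycles, 16.2 after 7 cycles and 11.0 in regrowth. Ccnb2 measured 18.9, 24.4, 26.0, 24.6 and 18.2 FPKM in the same order, and the ratio of Ccnb2 to Ccnb1 was 1.20, 1.15, 1.28, 1.52 and 1.65. Ccna2, the cyclin of S phase and early mitosis, measured 21.0, 24.1, 24.7, 20.7 and 16.8 FPKM. Cdk1, the kinase they share, stood apart from its cyclins, at 16.6, 20.0, 19.8, 18.4 and 19.6 FPKM, with log2 0.24 over vehicle and -0.02 over 4 cycles in regrowth. Cdc25c, the phosphatase that activates CDK1, lay between 4.21 FPKM in regrowth and 6.10 after 7 cycles. Foxm1 (chr6:128313011-128325904, mm9), the transcription factor of G2 and M genes, measured 7.52, 10.1, 8.41, 6.26 and 4.61 FPKM, and its regrowth value was 61.8% of vehicle, log2 -0.69.

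**Figure D4:**
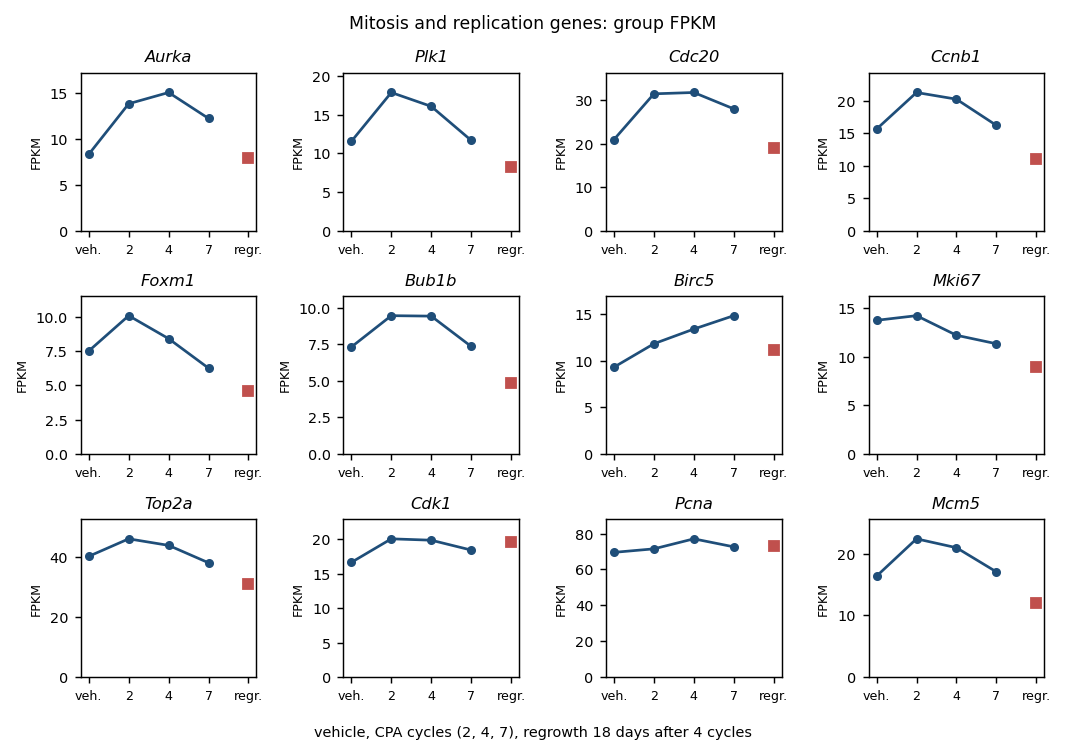
Group FPKM (vertical axes from 0) of 12 mitosis and replication genes in vehicle, after 2, 4 and 7 CPA cycles (joined circles) and in regrowth 18 days after 4 cycles (square). Aurka, Plk1, Cdc20 and Ccnb1 form an arch that ends at 7.95, 8.22, 19.1 and 11.0 FPKM in regrowth, Birc5 reaches 14.9 FPKM after 7 cycles, and Cdk1 and Pcna stand at 19.6 and 73.3 FPKM in regrowth.

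Of the 11 genes of the spindle, kinetochore and checkpoint, all 11 lay above vehicle after 2 cycles and 9 lay below it in regrowth. Birc5 (chr11:117710550-117717057, mm9), survivin, a subunit of the chromosomal passenger complex and inhibitor of apoptosis, had its highest value after 7 cycles. It measured 9.32 FPKM in vehicle, 11.8, 13.4 and 14.9 after 2, 4 and 7 cycles, and 11.1 in regrowth. Of the 46 genes it alone was higher past 1.5-fold after 7 cycles (log2 0.67), where the rescaled difference is within 1.5-fold. Among 45 mitosis genes outside the 48, Pttg1, Spc24 and Cdca3 were also higher past 1.5-fold after 7 cycles (log2 0.89, 0.71 and 0.68), beside 11.0% of all genes. Aurkb, the kinase of the passenger complex, measured 11.7, 15.8, 15.4, 13.8 and 10.9 FPKM with its highest value after 2 cycles. Bub1b (chr2:118423946-118467328, mm9), the checkpoint protein BubR1, measured 7.31, 9.45, 9.42, 7.35 and 4.82 FPKM, so its regrowth value was 66.3% of vehicle (log2 -0.59). Cenpe (chr3:134875526-134936504, mm9), a kinetochore motor, measured 6.54, 6.92, 6.25, 4.95 and 4.03 FPKM, with log2 -0.40 after 7 cycles and -0.69 in regrowth. In regrowth the other checkpoint genes were closer to vehicle than Bub1b and Cenpe, with log2 -0.19 for Bub1, -0.27 for Ttk and 0.05 for Mad2l1. Across all groups the checkpoint kinases Bub1 and Ttk lay between 3.92 and 5.08 FPKM and between 3.40 and 5.21 FPKM. Mad2l1, whose protein holds back Cdc20, lay between 10.3 and 13.4 FPKM. Of the spindle genes, Kif20a, a kinesin of the central spindle, measured 8.58, 12.6, 12.2, 8.78 and 6.76 FPKM and came closest to 1.5-fold after 2 cycles (log2 0.54). Kif11, a kinesin that separates the poles, Tpx2, an activator of Aurka, and the kinetochore gene Cenpf had log2 differences of 0.26, 0.28 and 0.19 after 2 cycles and -0.37, -0.40 and -0.46 in regrowth.

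Both partners of the anaphase-promoting complex stood above vehicle throughout treatment, except that Ube2c lies below it after 7 cycles when the groups are rescaled to a common total. Cdc20 (chr4:118105505-118109948, mm9), its mitotic activator, measured 21.0 FPKM in vehicle, 31.5 after 2 cycles, 31.8 after 4 cycles, 28.1 after 7 cycles and 19.1 in regrowth. Its log2 difference of 0.583 after 2 cycles was just within 1.5-fold and that of 0.597 after 4 cycles just past it, so that the limit divides nearly equal values. Ube2c, the ubiquitin conjugating enzyme of the complex, measured 29.5, 39.1, 41.0, 34.2 and 30.2 FPKM.

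Mki67 and Top2a, both widely used as proliferation markers, stood close to vehicle during early treatment. Mki67 (chr7:142881470-142908062, mm9), which encodes the Ki-67 antigen, measured 13.8 FPKM in vehicle, 14.2 after 2 cycles, 12.2 after 4 cycles, 11.3 after 7 cycles and 8.98 in regrowth, log2 0.05, -0.17, -0.28 and -0.61. Top2a, the topoisomerase that untangles sister DNA, measured 40.4, 46.2, 44.0, 38.2 and 31.0 FPKM. The ratio of Aurka to Mki67 was 0.608 in vehicle, 0.975 after 2 cycles, 1.24 after 4, 1.08 after 7 and 0.885 in regrowth, and that of Birc5 to Mki67 was 0.678, 0.832, 1.10, 1.31 and 1.24. After 4 and 7 cycles Mki67 stood below vehicle and Aurka above it. Mki67 has a transcript of 10.1 kb and Aurka one of 1.90 kb, and relative to genes of like length Mki67 differed from vehicle by log2 0.11, 0.04, 0.11 and -0.28. The part of transcript length in the ratio of these genes was not tested.

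Of the 4 CDK inhibitors, Cdkn1b, which encodes p27, lay below vehicle during treatment and above it in regrowth. It measured 18.9 FPKM in vehicle, 14.9 after 2 cycles, 16.6 after 4 cycles, 17.6 after 7 cycles and 24.4 in regrowth, log2 -0.34, -0.19, -0.11 and 0.36. The ratio of Ccnd1 to Cdkn1b was 6.76, 10.0, 7.08, 5.77 and 3.16, so regrowing tumors had the least cyclin D1 message per p27 message of any group. Cdkn2c, which encodes the INK4 inhibitor p18, measured 25.6, 32.7, 28.8, 25.7 and 23.2 FPKM, highest after 2 cycles and lowest in regrowth. Cdkn2a and Cdkn2b, the genes of p16, p19Arf and p15, stood at 0.227 to 0.475 FPKM and 0.594 to 0.983 FPKM. They are neighbours on chromosome 4, and no direction is read from such low values.

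In regrowth over 4 cycles, mitotic genes lay furthest down. Median log2 differences were -0.70 for mitotic entry (8 genes), -0.60 for spindle and checkpoint (11 genes) and -0.59 for the anaphase-promoting complex partners (2 genes). They were -0.47 for Mki67 with Top2a, -0.46 for licensing (8 genes) and -0.42 for G1 cyclins and kinases (5 genes). DNA synthesis (4 genes) had -0.39 and the G1 to S genes (4 genes) -0.30. Over vehicle this order did not hold, the medians in regrowth being -0.20, -0.34, -0.05, -0.49, -0.30, 0.09, -0.28 and -0.14 in the same order. Plk1 had the largest difference, at 8.22 FPKM in regrowth against 16.1 FPKM after 4 cycles (log2 -0.96). Bub1b had 4.82 against 9.42 FPKM (log2 -0.95), and Aurka 7.95 against 15.1 FPKM (log2 -0.92). Ccnd2, Ccnb1, Rrm2, Foxm1, Kif20a and Cdc6 followed at -0.91 to -0.80, and Mcm5, Ccne1, Cdc20, Kif11, Tpx2, Cenpe, Ccnd1, Ttk and Cenpf complete the 18 past 1.5-fold, at -0.79 to -0.59. The 3 genes above their 4 cycle level were Cdkn1b (log2 0.55), Cdk4 (log2 0.29) and Cdk2 (log2 0.28). Over 7 cycles the same 3 were higher in regrowth, together with Cdk1, Cdk6 and Pcna, while Aurka (log2 -0.62) and Bub1b (log2 -0.60) were lower past 1.5-fold. The comparisons of regrowth with 4 cycles, with 7 cycles and with vehicle share the regrowth libraries.

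Genes of mitosis share promoter elements that differ from those of S phase genes, the CHR (cell cycle genes homology region) bound by the DREAM and MuvB complexes beside CCAAT boxes bound by NF-Y, against E2F sites. The promoters of 38 of the 48 genes matched RefSeq windows (GRCm38.p6, 250 bases before to 50 after the start, 42 windows), and the motifs TTTGAA and TTCGAA (forms of the CHR), CCAAT, and GGCGGGA and TTTCGCG (forms of the E2F site) were searched on both strands. None of these motifs contains another. TTTGAA was in 12 of 17 windows of mitotic members (70.6%) and in 1 of 15 windows of G1 to S and replication members (6.67%), beside 17.9% of all 32851 windows. CCAAT was in 15 of the 17 mitotic windows (88.2%) and 10 of the 15 others (66.7%), beside 37.4% of all. TTTCGCG was in 1 mitotic window (5.88%) and in 4 of the 15 (26.7%), beside 0.849% of all, and GGCGGGA was in 29.4% and 33.3%, beside 11.3%. A match is a description of these letters and not a bound site. Ccnd1, Ccnd2, Foxm1, Aurkb, Ccna2, Ccne2, Cdc25c, Kif20a, Mcm4 and Tpx2 were not among the windows used. Shown are the 3 mitotic genes past 1.5-fold during early treatment (Aurka, Plk1 and Cdc20), the G1 to S gene past it (Ccne1), and Mki67, which shares the mitotic motifs but not the early elevation. Each is written 5′ to 3′ on the gene's own strand with matched motifs in capitals, CCAAT on the opposite strand reading ATTGG. The windows are chr2:172370521-172370820 (minus strand), chr7:122159185-122159484 (plus), chr4:118437294-118437593 (minus), chr7:38107441-38107740 (minus) and chr7:135716330-135716629 (minus), all GRCm38.p6.
Aurka: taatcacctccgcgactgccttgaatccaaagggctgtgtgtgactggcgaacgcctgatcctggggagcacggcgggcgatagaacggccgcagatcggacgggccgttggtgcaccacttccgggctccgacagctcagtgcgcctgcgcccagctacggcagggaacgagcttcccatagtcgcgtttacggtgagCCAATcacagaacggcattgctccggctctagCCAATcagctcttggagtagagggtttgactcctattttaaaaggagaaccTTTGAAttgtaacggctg
Plk1: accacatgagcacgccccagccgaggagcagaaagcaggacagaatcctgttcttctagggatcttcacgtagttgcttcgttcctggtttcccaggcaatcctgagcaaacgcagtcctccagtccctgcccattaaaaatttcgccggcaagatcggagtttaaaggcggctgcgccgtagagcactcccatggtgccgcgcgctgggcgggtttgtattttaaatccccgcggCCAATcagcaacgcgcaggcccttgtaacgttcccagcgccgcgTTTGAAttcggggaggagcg
Cdc20: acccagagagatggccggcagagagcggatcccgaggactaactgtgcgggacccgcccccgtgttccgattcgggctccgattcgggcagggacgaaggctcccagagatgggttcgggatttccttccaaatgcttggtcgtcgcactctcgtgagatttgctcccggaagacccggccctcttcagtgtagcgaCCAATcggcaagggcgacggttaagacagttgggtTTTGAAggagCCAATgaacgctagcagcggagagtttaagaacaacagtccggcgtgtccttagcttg
Ccne1: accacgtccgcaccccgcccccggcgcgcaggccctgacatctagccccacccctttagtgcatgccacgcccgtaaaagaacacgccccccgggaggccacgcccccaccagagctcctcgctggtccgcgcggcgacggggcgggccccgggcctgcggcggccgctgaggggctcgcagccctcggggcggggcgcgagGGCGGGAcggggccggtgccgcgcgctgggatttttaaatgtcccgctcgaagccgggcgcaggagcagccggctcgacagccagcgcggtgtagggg
Mki67: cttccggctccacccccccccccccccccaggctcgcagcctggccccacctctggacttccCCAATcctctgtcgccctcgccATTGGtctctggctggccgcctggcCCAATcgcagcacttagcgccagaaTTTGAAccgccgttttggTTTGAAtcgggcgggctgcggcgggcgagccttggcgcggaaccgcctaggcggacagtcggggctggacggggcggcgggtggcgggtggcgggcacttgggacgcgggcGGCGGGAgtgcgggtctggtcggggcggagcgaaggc

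In the Aurka window, CCAAT boxes begin 51 and 19 bases upstream of the start and the TTTGAA begins at base 33 after it. Plk1 has a CCAAT 14 bases upstream and a TTTGAA at base 31 after the start, and Cdc20 has CCAAT boxes 53 and 8 bases upstream around a TTTGAA at 18. Ccne1 has neither CHR form nor a CCAAT, and 1 GGCGGGA 48 bases upstream. Mki67 carries 2 copies of TTTGAA that begin 116 and 98 bases upstream, with 3 CCAAT boxes at 188, 166 and 141. Its GGCGGGA begins at base 14 after the start. The Mki67 promoter thus holds both motif classes, while its FPKM after 4 cycles was 12.2, against 13.8 in vehicle. A CCAAT box together with either CHR form was in 13 of 17 mitotic windows (76.5%), in 2 of 15 G1 to S and replication windows (13.3%) and in 7.52% of all windows.

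Of the other genes of the cycle, those of mitosis and of replication had medians above vehicle after 2 and 4 cycles and below it in regrowth, while the medians of the further regulators were near those of all genes. The 45 further mitosis genes had median log2 differences of 0.34, 0.31, 0.07 and -0.21 over vehicle after 2, 4 and 7 cycles and in regrowth, and 21 of the 45 (46.7%) were lower past 1.5-fold in regrowth than after 4 cycles, with 0 higher, beside 10.5% and 4.16% of all genes. Over vehicle, 0, 4, 3 and 1 of the 45 were higher past 1.5-fold and 0, 0, 0 and 4 lower. The 30 further replication genes had medians of 0.21, 0.19, 0.13 and -0.20, with 0, 0, 2 and 0 higher and 0, 0, 0 and 2 lower past 1.5-fold over vehicle, and 8 (26.7%) lower and 0 higher in regrowth over 4 cycles. The 37 further regulators above 1 FPKM had medians of 0.09, 0.10, -0.02 and -0.06, beside 0.04, 0.06, 0.00 and -0.01 for all genes, with 1, 2, 2 and 1 higher and 1, 1, 2 and 4 lower over vehicle, and 5 (13.5%) lower and 0 higher in regrowth over 4 cycles. Over vehicle the shares of all genes were 6.72%, 7.83%, 11.0% and 6.79% higher and 2.08%, 3.82%, 8.74% and 7.77% lower, so the counts of these lists over vehicle were near or under the background. Cdkn1a, the p53 target that encodes the CDK inhibitor p21, was the regulator with the largest early difference, at 9.78 FPKM in vehicle, 24.6 after 2 cycles, 24.1 after 4 cycles, 18.5 after 7 cycles and 9.36 in regrowth (log2 1.32, 1.29, 0.91 and -0.06). E2f8, a repressor of E2F target genes, measured 10.4, 8.61, 6.22, 3.79 and 3.90 FPKM, log2 -1.43 over vehicle after 7 cycles and -1.39 in regrowth. Tob1, an antiproliferative factor, measured 1.80, 2.63, 3.03, 3.93 and 3.15 FPKM (log2 1.08 after 7 cycles). In regrowth, Pole, the catalytic subunit of DNA polymerase epsilon, stood at 1.35 FPKM against 2.92 FPKM in vehicle (log2 -1.06), and the chromokinesin Kif4 at 1.36 against 2.85 FPKM (log2 -1.01).

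Transcript length moved with these differences across the whole table. Among all genes with a length, those under 1 kb had a median log2 difference over vehicle of 0.12, 0.25, 0.45 and 0.38 after 2, 4 and 7 cycles and in regrowth, and those over 8 kb one of -0.06, -0.21, -0.38 and -0.33. Spearman's rho of the difference with length over 10838 genes was -0.19, -0.39, -0.52 and -0.50, and over the 46 cell cycle genes it was -0.39, -0.49, -0.63 and -0.63, where genes are not independent replicates. Taken relative to genes of like length, the median of the 46 was 0.22, 0.19, 0.05 and -0.24. Of the 6 genes lower past 1.5-fold in regrowth, Ccnd1 alone remained so (log2 -0.61), with Foxm1 at -0.57, Cdk6 and Bub1b each at -0.47, Cenpe at -0.36 and Mki67 at -0.28. For regrowth over 4 cycles the trend with length was weaker, with rho -0.20 over all genes and -0.06 over the 46, and relative to genes of like length 12 of the 18 stayed past 1.5-fold, with a median of -0.43. On that scale 8.4% of all genes were lower and 4.04% higher past 1.5-fold, and 5.3% and 4.24% for regrowth over vehicle. What makes long and short transcripts differ between these groups was not tested.

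**Figure D5:**
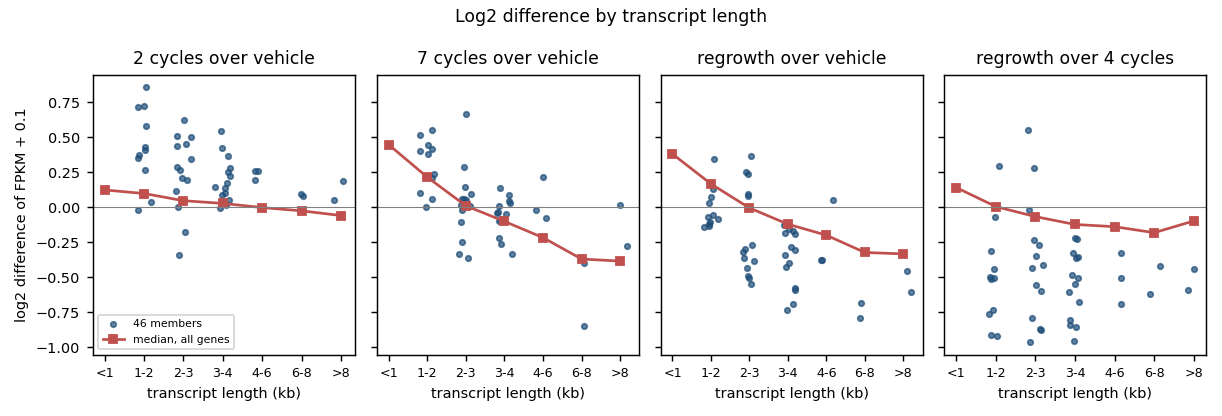
Log2 difference of FPKM + 0.1 against transcript length in 7 bins (kb) for 46 cell cycle genes (points) and the median of all genes with a mean FPKM of at least 1 (red squares), in 4 comparisons. The median of all genes slopes from 0.45 under 1 kb to -0.38 over 8 kb for 7 cycles over vehicle, while for regrowth over 4 cycles it stays within 0.18 of 0 and the cell cycle points lie mostly below it.

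Markers of other cell types also differed between the groups, and the lists did not share 1 course. The 10 granulocyte precursor markers summed to 3.78 FPKM in vehicle, 45.2 after 2 cycles, 69.1 after 4, 102 after 7 and 4.46 in regrowth, where Fcnb was listed at 0. Of these 10 markers only Prtn3 was above 1 FPKM in vehicle, at 1.45 FPKM. The others could reach a mean of 1 FPKM only through the CPA groups, so no count past 1.5-fold is read from this list. The 8 erythroid markers summed to 47.6, 127, 151, 195 and 42.5 FPKM, with Slc4a1 listed at 0 in regrowth, and the 10 T cell markers to 8.18, 16.4, 11.3, 8.74 and 12.7 FPKM. The 10 macrophage markers summed to 901, 1244, 1633, 993 and 791 FPKM. Of these sums, those of granulocyte precursors and erythroid cells were highest after 7 cycles, that of macrophages after 4 and that of T cells after 2. The 14 fibroblast and matrix genes, by contrast, summed to 1697, 1278, 921, 666 and 810 FPKM. The 8 neutrophil markers summed to 102, 295, 297, 433 and 82.2 FPKM, the 9 NK and cytotoxic markers to 8.01, 32.1, 21.2, 10.2 and 7.16, the 10 endothelial markers to 71.4, 83.0, 61.4, 52.7 and 76.0, the 7 adipocyte markers to 40.2, 137, 109, 118 and 63.3, and the 10 skeletal muscle markers to 87.5, 30.2, 7.87, 471 and 30.5. During treatment the neutrophil sum was mostly S100a8 and S100a9. Mmp9 alone of that list lay below vehicle (45.9 FPKM) after 2, 4 and 7 cycles, at 25.8, 30.7 and 17.8 FPKM. The part of these cells in the level of the cell cycle genes was not tested.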

How the data were processed

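Strand-specific polyadenylated RNA libraries were made by the authors from pooled tumor RNA, and per the labels the submitters' notes name TopHat2, featureCounts, edgeR and the mouse build mm9. Their versions, the annotation and how libraries were combined into groups were not given in the sources used here. In the table the authors deposited, each group of 2 to 3 libraries has a single FPKM value for each gene. The study's methods give only a mean depth over tumor libraries and the table none per group, so no counting interval was computed. Of 24197 lines, 27 held a date in place of a symbol and were left out, and 22846 of the 24170 symbols matched RefSeq. In all, 3602 genes were listed at 0 in every group, among them Hmgcs1, an enzyme of every cell, so a 0 was read only as listed at 0. The deposited ratios, fold changes and p-values of the authors' 4 comparisons with vehicle were not used. The vehicle values, which the table gives once per comparison, were read once.

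Differences are log2((FPKM + 0.1)/(FPKM + 0.1)). Genes with a mean FPKM of at least 1 over the groups were counted, with a limit of 1.5-fold. Values were given in full for cell cycle genes past 1.5-fold in any comparison with vehicle and for a fixed panel (Mki67, Top2a, Pcna, Mcm2, Ccnd1, Ccne1, Ccna2, Ccnb1, Cdk1, E2f1, Foxm1 and the CDK inhibitors), and for listed pathway genes past 2-fold. The genes and all lists were chosen with earlier results of these data known, and not every list of cell type markers is reported here. Coordinates of genes are those of the table (mm9), and promoter windows and their coordinates are from RefSeq (GRCm38.p6). Transcript length is the median over basic protein-coding transcripts of GENCODE vM21, known for 94.8% of the genes counted and all 48 cell cycle genes. The code was tested on simulated data. Python 3.11.15, numpy 2.4.6, pandas 2.3.3 and matplotlib 3.10.9 were used. Alternatives were other pseudocounts, other minimum levels, 2 rescalings, a 2-fold limit and centring by transcript length.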

Additional observations from a re-analysis of the deposited data

How the results depend on the processing

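No sign of a median was reversed under a pseudocount of 1 or 0.01 FPKM, no minimum or a minimum of 5 FPKM, or centring on the median of all genes. With a 2-fold limit, the number of cell cycle genes past it was 0, 1, 0 and 0 over vehicle after 2, 4 and 7 cycles and in regrowth, and 0 and 0 for regrowth over 4 and over 7 cycles, beside 2.89%, 3.30%, 3.87% and 1.54% of all genes higher over vehicle. With a pseudocount of 1 FPKM, 2 genes were past 1.5-fold after 4 cycles and 0 for regrowth over 7 cycles. With that pseudocount 5.79% of all genes were higher and 2.47% lower after 4 cycles, and 1.43% and 3.77% for regrowth over 7 cycles. With each group rescaled to the same total, 2 were past it after 4 cycles, 5 after 7 cycles, 18 in regrowth over vehicle and 0 in regrowth over 7 cycles. The rescaled shares of all genes over vehicle are given above, and for regrowth over 7 cycles they were 3.41% higher and 5.13% lower. The median of the cell cycle genes became 0.0679 after 4 cycles, -0.256 after 7 cycles, where the sign of a value near 0 turned, and -0.509 in regrowth. Centring on the median of all genes left 2 after 4 cycles, beside 6.93% of all genes higher and 4.62% lower. A minimum of 5 FPKM left 1 after 7 cycles, beside 10.9% and 5.29%. Centring within bins of transcript length, an alternative chosen after seeing the data, left 2 after 4 cycles, 1 after 7 cycles, 1 in regrowth over vehicle and 1 in regrowth over 7 cycles, and 13 in regrowth over 4 cycles (12 lower and 1 higher, Cdkn1b). In that order, the shares of all genes higher were 6.29%, 7.46%, 4.24%, 2.35% and 4.04%. The shares lower were 4.04%, 6.21%, 5.3%, 5.19% and 8.4%.

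No paired analysis was possible because the table holds 1 value per group and none per library, and leaving out single libraries was not run for the same reason. How far any of these values would differ between libraries is not known, and no counting interval was computed for genes at low FPKM, since the table holds no depth per group.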
